A study of Mus musculus with 6 samples.

Results

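The genes described here encode proteins of pre-mRNA splicing: the SR proteins, the hnRNP proteins, the Sm, U1 and U2 proteins, the SF3A and SF3B subunits and the PRP proteins. They were chosen by name, as all genes whose symbol starts with Srsf, Sf3, Snrp, Hnrnp or Prpf, except Hnrnpa2b1, Hnrnpc and Hnrnpd. This gave 62 of the 21936 genes listed: 17 hnRNP genes, 13 PRP genes, 11 SR genes, 9 SF3 genes, 8 Sm genes and 4 genes of U1 and U2 specific proteins. Of these, 59 reached 1 FPKM in at least 3 libraries and were tested. FPKM divides the reads of a gene by its length and by the depth of the library.

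RNA was sequenced from sorted macrophages of mice kept 4 months on a high-fat diet, in 3 libraries labelled WT (genotype ALKBH5flox/flox, APOE-/-) and 3 labelled CKO (ALKBH5flox/flox, Lyz2-Cre, APOE-/-). The comparison asks how macrophages differ when Alkbh5, the gene of an RNA demethylase that removes N6-methyladenosine, is deleted in cells that express Lyz2, which include other myeloid cells such as neutrophils. Since no label ties a library to an animal, p-values here reflect only how much the libraries of a group vary, and that variation may be technical. WT and CKO below stand for these labels. Values are FPKM as deposited, summarised as mean ± SD over n = 3 libraries. Fold changes are on log2(FPKM + 1), CKO minus WT, and a gene was called at a limma adjusted p (Benjamini-Hochberg over all tested genes) under 0.05.

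Introns are removed by the spliceosome, which is built from small nuclear RNAs and their proteins. The U1 particle binds the 5′ splice site and the U2 particle the branch site, each on a ring of Sm proteins, with SF3A and SF3B as parts of U2, while many PRP proteins act in the U4/U6.U5 tri-snRNP or in activation and catalysis. SR proteins mostly promote the use of exons they bind, hnRNP proteins package nascent RNA and often repress nearby sites, and genes of both families are known to tune their own mRNA through poison exons and decay.

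Alkbh5 went against the label: it read 3.77, 3.95 and 3.88 FPKM in the WT-labelled libraries and 9.15, 8.61 and 8.50 FPKM in the CKO-labelled ones (log2 fold change 1.00, limma adjusted p 4.78e-09). Apoe, labelled null in both groups, went from 1635 ± 29.3 to 95.02 ± 4.69 FPKM, and Lyz2, a myeloid lysozyme gene, from 15116 ± 992 to 6556 ± 211 FPKM. Every direction below is therefore one between labels, whatever the genotype of the cells was. Reads assigned to genes ranged from 15422154 to 18418903 per library, and 3 reads of a gene 1 kb long corresponded to 0.163 to 0.195 FPKM, a limit that covers counting error only. Libraries of different groups differed far more (chi-square per degree of freedom 404 to 449) than libraries of a group (2.16 to 3.18). All 13 macrophage core markers were tested, with 5 higher and 8 lower in CKO, and their summed level was 17221 to 19137 FPKM in WT and 9542 to 9963 FPKM in CKO. Lyz2 carried that difference: the other 12 summed to 2826 to 2907 FPKM in WT and 3110.3 to 3166 FPKM in CKO. Of the other cells a macrophage sort can hold, neutrophil markers summed to 622 to 912 FPKM in WT and 88.8 to 102 FPKM in CKO (1 higher and 7 lower of 9 tested), and endothelial markers to 26.7 to 27.3 and 7.85 to 9.06. Without Vwf the other 4 endothelial markers summed to 6.95 to 7.34 FPKM in WT and 5.37 to 6.16 FPKM in CKO. By mean 2 of these were lower and 2 higher. Dendritic cell markers summed to 1.90 to 2.34 FPKM in WT and 20.4 to 23.9 FPKM in CKO, with Ccr7 at 0.742 ± 0.0497 FPKM in WT and 21.1 ± 1.81 FPKM in CKO; the other 6 summed to 1.20 to 1.61 and 0.821 to 0.937 FPKM. B and plasma cell markers summed to 3.92 to 5.87 FPKM in WT and 1.59 to 2.27 FPKM in CKO. T and NK cell markers summed to 4.94 to 5.05 and 0.953 to 1.06 FPKM (0.644 to 1.57 and 0.438 to 0.623 without Cd4). Fibroblast and smooth muscle markers summed to 1.44 to 2.30 and 3.59 to 3.76 FPKM (0.601 to 0.938 and 0.762 to 0.960 without Acta2). Proliferation markers summed to 109.9 to 112 FPKM in WT and 54.1 to 60.5 FPKM in CKO, with 8 of 8 lower. None of the markers was at 0 in every library.

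The upstream sequences of 8 splicing genes are shown as examples from the SR, PRP, SF3 and U2 classes, so that genes that were higher, lower and not called can be read side by side. They are the 100 bases before the RefSeq transcription start (GRCm38.p6, the mm10 assembly), read 5′ to 3′ on the strand of the gene. Capitals mark the ETS letters CCGGAAG and the CCAAT letters CCAATC, or their reverse complements.
Prpf38a (chr4:108579337-108579436, - strand): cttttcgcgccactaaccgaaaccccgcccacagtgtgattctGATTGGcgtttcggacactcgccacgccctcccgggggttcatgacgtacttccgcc
Prpf38b (chr3:108911730-108911829, - strand): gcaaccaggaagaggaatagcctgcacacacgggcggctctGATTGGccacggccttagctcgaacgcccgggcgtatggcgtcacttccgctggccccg
Srsf2 (chr11:116853095-116853194, - strand): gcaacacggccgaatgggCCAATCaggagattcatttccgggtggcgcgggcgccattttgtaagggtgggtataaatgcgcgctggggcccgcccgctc
Srsf5 (chr12:80945399-80945498, + strand): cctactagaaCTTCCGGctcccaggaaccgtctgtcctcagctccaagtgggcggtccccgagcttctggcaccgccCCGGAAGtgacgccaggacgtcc
Srsf3 (chr17:29032560-29032659, + strand): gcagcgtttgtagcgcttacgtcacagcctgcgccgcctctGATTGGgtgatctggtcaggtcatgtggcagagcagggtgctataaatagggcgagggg
Sf3b2 (chr19:5295456-5295555, - strand): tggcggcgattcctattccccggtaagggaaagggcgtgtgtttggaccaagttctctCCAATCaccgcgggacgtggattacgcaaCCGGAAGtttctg
Sf3b6 (chr12:4817508-4817607, + strand): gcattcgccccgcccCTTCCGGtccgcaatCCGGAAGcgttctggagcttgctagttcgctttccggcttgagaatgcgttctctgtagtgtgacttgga
Snrpb2 (chr2:143062969-143063068, + strand): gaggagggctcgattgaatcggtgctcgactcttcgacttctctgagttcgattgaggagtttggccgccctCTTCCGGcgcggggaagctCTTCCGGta
In these runs Prpf38a and Prpf38b both carried the CCAAT letters, and so did Srsf2, which was lower in CKO, and Srsf3, which was not called. Sf3b2, lower in CKO, and Sf3b6, higher in CKO, both carried the ETS letters. All the runs shown carry a marked match, whereas those of Srsf1, Srsf6, Prpf8 and Sf3b1 carry none, so the examples are not a typical sample. A match is a description of letters and not of a bound site.

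Promoter windows of 300 bases (250 before the start and 50 after it) were matched in RefSeq for 54 of the 62 splicing genes, 38 of them within 100 bases of the start listed with the FPKM values. In them 12 motifs were searched on both strands. The ETS letters were in 18 of 54 windows (33.3%), against 20.6% of the windows of 8070 tested genes and 12.2% of all 16801 windows. They were in 14 of the 32 windows of genes lower in CKO and in 2 of the 9 windows of genes higher in CKO. The CCAAT letters were in 19 of 54 windows (35.2%), against 21.1% of tested genes and 18.7% of all windows, with 11 of 32 among lower and 4 of 9 among higher genes. Letters of elements known from inflammatory genes were rare: the full NF-kB consensus and the interferon-stimulated response element were in 0 of 54 windows, against 0.186% and 3.33% of tested genes (0.149% and 3.46% of all windows). The AP-1 letters TGAGTCA were in 2 windows, those of Hnrnpa1 and Snrpc (3.70%, against 3.47% of tested genes and 4.59% of all windows). The NRF1 consensus was in 0 windows (2.38% of tested genes and 1.37% of all), and the E2F letters TTTCCCGC were in 3, those of Hnrnpul1, Srsf1 and Srsf10 (5.56%, against 2.23% and 1.51%).

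Most splicing genes were lower in the libraries labelled CKO, by modest amounts. Of 59 tested, 37 were lower, 9 were higher and 13 were not called. Over all 9953 tested genes 50.5% were lower, 30.5% were higher and 81.1% were called in either direction, so the share of splicing genes called (78.0%) lay near the background. The counts by class given below are descriptions beside these shares. The median log2 fold change was -0.19 for the splicing genes and -0.14 for all tested genes. The summed level fell from 1344, 1312 and 1358 FPKM in WT to 1137, 1142 and 1128 FPKM in CKO. As a share of all reads this was 0.711%, 0.685% and 0.713% in WT and 0.598%, 0.603% and 0.588% in CKO. Both sums were lower in every CKO library than in every WT library. Both are already divided by library depth, and neither was taken after the median-of-ratios scaling described below. Its factors, by which FPKM is divided, were 1.06 to 1.07 in WT and 0.935 to 0.944 in CKO. It therefore narrows the difference in summed FPKM. In bulk RNA such as this, fewer cells of a type and less RNA per cell cannot be told apart.

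Fold changes of the splicing genes were smaller in size than those of the typical tested gene. Their log2 fold changes ran from -0.93 (Hnrnpll) to 1.02 (Prpf38a), with a median size of 0.24, against 0.40 over all tested genes. A called change of at least 1 in size was found for 1 of 59, against a background of 18.4%, and one of at least 0.5 for 11 of 59, against 41.4%. Levels in the 3 WT and 3 CKO libraries did not overlap for 9 genes at a higher and 37 at a lower level, beside 31.2% and 51.3% of all tested genes (82.5% in either direction). They were not quite the called genes: Prpf38b, Snrpg and Hnrnpa0 were called with overlap, and Prpf4 and Sf3b5 were among those apart without a call. The histogram of fold changes shows the narrow spread.

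**Figure D1:**
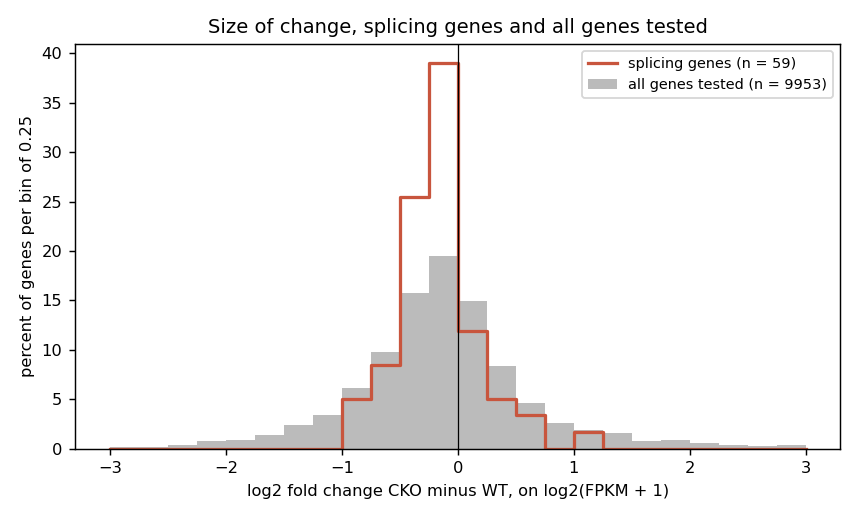
Distribution of log2 fold changes (CKO minus WT, log2(FPKM + 1)) for the 59 tested splicing genes and for all 9953 tested genes, as percent of genes per bin; 189 values of all genes (1.90%) lie outside the axis. The splicing genes lie between -0.93 and 1.02, with a median of -0.19.

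The split between higher and lower depended on how libraries were scaled. Median-of-ratios scaling, which sets the typical gene equal between libraries, moved the median of all tested genes from -0.14 to 0.01 and that of the splicing genes from -0.19 to -0.02. After it 18 splicing genes were higher and 21 lower (background 40.8% and 38.9%, 79.7% in either direction). All 9 genes higher as deposited were also higher there, and 21 of the 37 lower genes were also lower. Of the other 16, 15 were no longer called and Hnrnpab was called higher (log2 fold change -0.095 as deposited and 0.086 after scaling). After quantile normalization 12 were higher and 32 lower (background 35.9% and 43.4%). Across 17 ways of fitting, 8 genes were called higher and 21 lower in every fit that tested them; Prpf40b, Snrpa1 and Srsf4 among them were tested in 16, as they did not reach a mean of 5 FPKM.

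**Figure D2:**
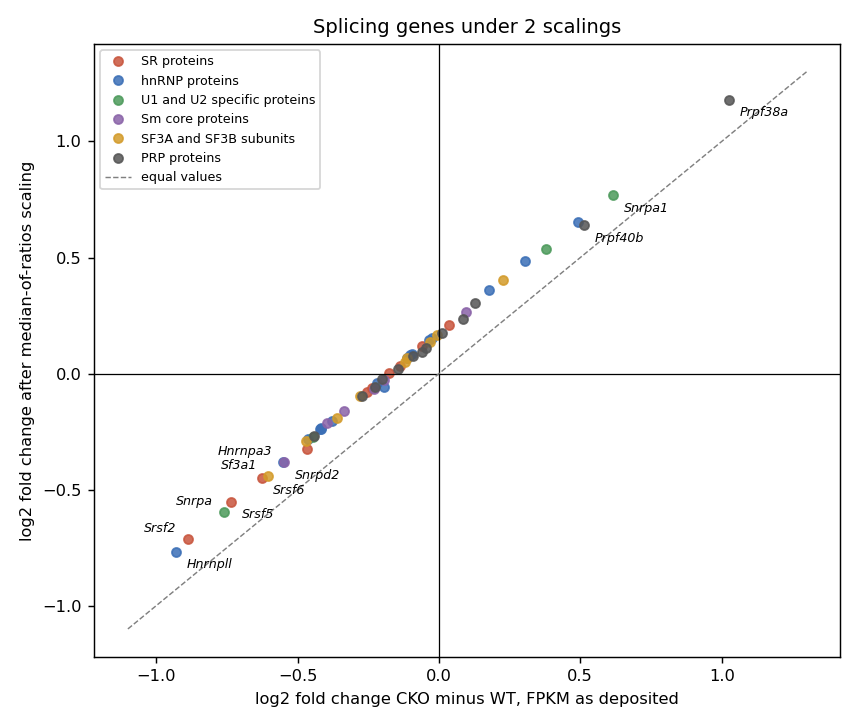
Log2 fold change (CKO minus WT) of each tested splicing gene with FPKM as deposited (horizontal) and after median-of-ratios scaling (vertical), coloured by class; the dashed line marks equal values. Points lie above the line; Hnrnpll and Srsf2 are lowest and Prpf38a is highest under both scalings.

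SR proteins bind exonic enhancers and help U1 and U2 find splice sites. None of the 10 tested was higher in CKO and 8 were lower; after median-of-ratios scaling 4 were lower and 1, Srsf3, was higher. The median log2 fold change was -0.25, and the summed level of the class was 252 to 273 FPKM in WT and 195 to 198 FPKM in CKO. Srsf12 had 0 reads in all 6 libraries.

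Srsf2 (SC35; ENSMUSG00000034120, chr11:116849901-116853094, mm10), which activates exons through both purine- and pyrimidine-rich enhancers, had 25.8, 24.0 and 27.1 FPKM in the WT-labelled libraries and 14.2, 13.8 and 12.2 FPKM in the CKO-labelled ones. The groups did not overlap, and it was 47.8% lower in CKO (log2 fold change -0.89, SE 0.0595, limma adjusted p 7.23e-08; -0.71 after median-of-ratios scaling). Exons of genes on the opposite strand cover 25.3% of the exon length of Srsf2, and 1 of them, Mfsd11, went from 22.6 ± 0.630 to 11.5 ± 0.130 FPKM. The kit marks strand, but whether the counting used it is not given in the sources used here; without it the reads of this pair cannot be told apart. Mettl23, also opposite to Srsf2, read 5.38 ± 0.238 and 5.23 ± 0.211 FPKM.

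Srsf5 (ENSMUSG00000021134, chr12:80945504-80950507), the most abundant SR gene by FPKM, had 86.6, 72.6 and 80.8 FPKM in the WT-labelled libraries and 46.8, 48.3 and 47.5 FPKM in the CKO-labelled ones and fell by 40.6% (log2 fold change -0.74, SE 0.0533, limma adjusted p 1.49e-07; -0.55 after median-of-ratios scaling). The WT libraries spread more than the CKO libraries, which lay within 2 FPKM of each other, and all were above them. Srsf6 (ENSMUSG00000016921, chr2:162931528-162937121), a regulator of exon inclusion related to Srsf5, had 30.9, 28.5 and 29.99 FPKM in the WT-labelled libraries and 19.8, 18.8 and 18.3 FPKM in the CKO-labelled ones. It too was lower in every CKO library, by 36.4% (log2 fold change -0.63, SE 0.0433, limma adjusted p 9.79e-08; -0.45).

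The remaining SR genes moved less. Srsf4, at a few FPKM, was lower at 3.98, 3.47 and 4.40 FPKM (WT) and 2.70, 2.37 and 2.65 FPKM (CKO), without overlap (log2 fold change -0.47, limma adjusted p 1.35e-04); 43.0% of its exon length is shared with an overlapping gene model, Gm12992. Srsf7, which also serves in mRNA export, went from 16.7 ± 1.38 to 13.8 ± 0.516 FPKM (log2 fold change -0.25), Srsf11 from 22.3 ± 2.19 to 18.8 ± 0.671 FPKM (-0.24), Srsf1, the founding family member, from 25.3 ± 0.621 to 22.2 ± 0.752 FPKM (-0.18) and Srsf10 from 13.4 ± 0.150 to 12.1 ± 0.431 FPKM (-0.14). These 4 were called as deposited and not after median-of-ratios scaling, where their log2 fold changes were -0.081, -0.061, 0.0011 and 0.033. Srsf3 read 15.3 ± 0.218 FPKM in WT and 15.7 ± 0.152 FPKM in CKO, with a 95% interval of the log2 fold change of -0.047 to 0.12, and Srsf9 33.0 ± 1.83 FPKM in WT and 31.6 ± 1.59 FPKM in CKO, with an interval of -0.17 to 0.047; neither was called as deposited. After scaling Srsf3 was called higher (log2 fold change 0.21, limma adjusted p 3.12e-04).

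**Figure D3:**
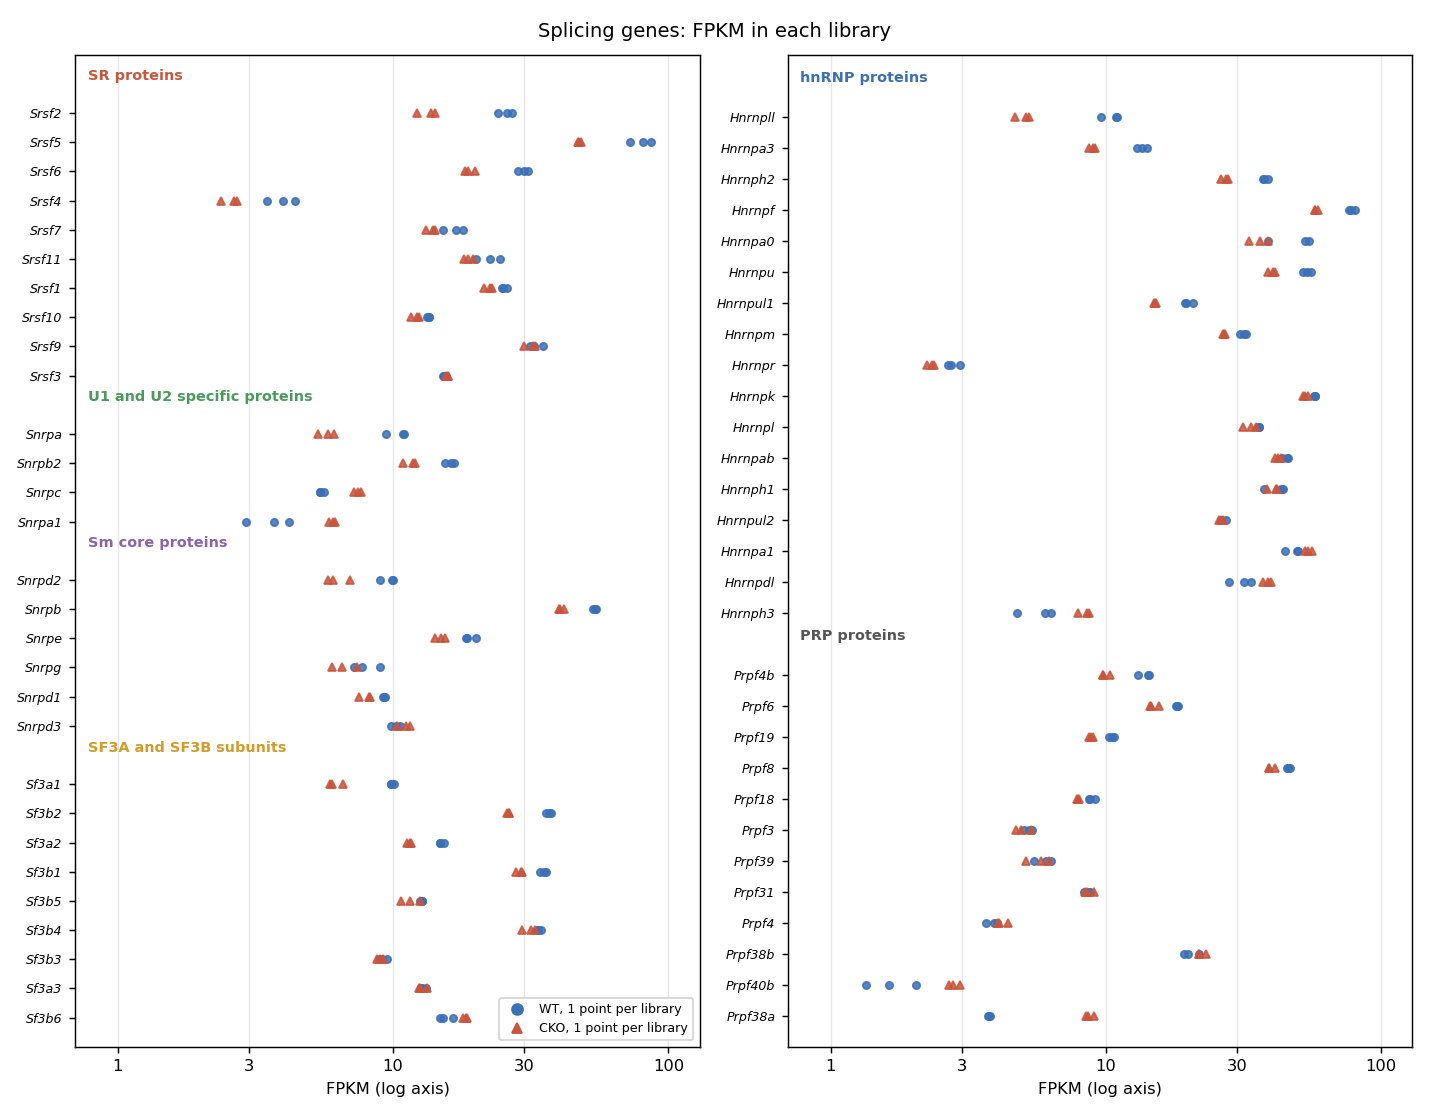
FPKM (log axis) in each of the 3 WT and 3 CKO libraries for 58 of the 59 tested splicing genes, grouped by class and ordered by fold change; blue circles are WT libraries and red triangles CKO libraries. Triangles lie left of circles for genes such as Hnrnpll and Srsf2 and right of them for Prpf38a, and they overlap among called genes for Hnrnpa0, Snrpg and Prpf38b.

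The hnRNP proteins coat nascent RNA and steer splice site choice, stability and export. Of 17 tested, 12 were lower in CKO, 3 were higher and 2 were not called; after median-of-ratios scaling 6 were lower and 6 higher. The summed level as deposited was 580 to 602 FPKM in WT and 508 to 523 FPKM in CKO, and it was not taken after that scaling.

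Hnrnpll (ENSMUSG00000024095, chr17:80029487-80062334), a regulator of exon choice best known for CD45 splicing in lymphocytes, had 10.9, 9.59 and 10.9 FPKM in the WT-labelled libraries and 5.11, 5.25 and 4.69 FPKM in the CKO-labelled ones. It was 52.1% lower, the largest fall of the 59 genes (log2 fold change -0.93, SE 0.0607, limma adjusted p 5.83e-08; -0.77 after median-of-ratios scaling). Lymphocyte markers were low. The 2 B and plasma cell genes tested, Cd79b and Jchain, were lower in CKO, and so was the 1 T and NK cell gene tested, Cd4. Cd3d, Cd3e and Cd3g had 0 to 5 reads per library and did not enter the test. The part of lymphocytes in the Hnrnpll difference was not tested. Its paralog Hnrnpl, a general regulator of alternative exons, read 35.9 ± 0.172 FPKM in WT and 33.5 ± 1.799 FPKM in CKO, a call near the threshold (limma adjusted p 0.0393) that was lost when any library but CKO replicate 2 was left out (limma adjusted p 0.0701 to 0.149; log2 fold change -0.062 without CKO replicate 1) and after median-of-ratios scaling (log2 fold change 0.079).

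Hnrnpa3 (ENSMUSG00000059005, chr2:75659261-75669407), of the A/B family, had 13.6, 13.0 and 14.1 FPKM in the WT-labelled libraries and 9.14, 8.71 and 8.95 FPKM in the CKO-labelled ones, without overlap (34.1% lower; log2 fold change -0.55, SE 0.0455, limma adjusted p 4.87e-07; -0.38 after scaling). Its family member Hnrnpa1 (ENSMUSG00000046434, chr15:103240432-103246692), a classic antagonist of SR proteins, went the other way with 49.4, 44.9 and 49.9 FPKM in the WT-labelled libraries and 53.0, 56.1 and 54.4 FPKM in the CKO-labelled ones. Every CKO library was above every WT library, a rise of 13.4% (log2 fold change 0.18, SE 0.0430, limma adjusted p 0.00257; 0.36 after scaling). Both have processed copies elsewhere in mammalian genomes, so their levels are uncertain where counting could split reads.

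The F/H family, which binds G-rich runs near splice sites, was also divided. Hnrnpf (ENSMUSG00000042079, chr6:117900324-117925622), the most abundant of the 17 hnRNP genes described here, had 76.3, 80.1 and 77.7 FPKM in the WT-labelled libraries and 57.4, 59.0 and 57.6 FPKM in the CKO-labelled ones and was 25.7% lower (log2 fold change -0.42, SE 0.0311, limma adjusted p 1.72e-07; -0.24 after scaling); other gene models overlap 26.5% of its exon length. Hnrnph2 (ENSMUSG00000045427, chrX:134601179-134607060) had 37.1, 37.6 and 38.7 FPKM in the WT-labelled libraries and 27.4, 27.8 and 26.2 FPKM in the CKO-labelled ones and was 28.2% lower (log2 fold change -0.46, SE 0.0363, limma adjusted p 2.98e-07; -0.28). For both genes all CKO libraries lay below all WT libraries.

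Hnrnph3 (ENSMUSG00000020069, chr10:63014664-63024217) was higher, with 6.31, 4.78 and 6.0004 FPKM in the WT-labelled libraries and 7.89, 8.52 and 8.68 FPKM in the CKO-labelled ones, a rise of 46.9% (log2 fold change 0.49, SE 0.0809, limma adjusted p 1.69e-04; 0.65 after scaling). WT replicate 2 was the lowest library, and the groups were apart. Hnrnph1 was not called at 41.7 ± 3.67 FPKM in WT and 40.6 ± 1.88 FPKM in CKO (95% interval of the log2 fold change -0.17 to 0.094); it was called lower without WT replicate 2 (limma adjusted p 0.0444) and higher after median-of-ratios scaling (0.14). Hnrnpdl (ENSMUSG00000029328, chr5:100033577-100039664), a D-like protein whose mRNA carries an autoregulatory exon, had 31.9, 27.9 and 33.7 FPKM in the WT-labelled libraries and 38.9, 39.9 and 37.2 FPKM in the CKO-labelled ones and rose by 24.1% (log2 fold change 0.31, SE 0.0597, limma adjusted p 6.06e-04; 0.49 after scaling). FPKM sums over all exons of a gene and cannot show whether a change lies in a coding or a poison-exon form.

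Of the remaining hnRNP genes, Hnrnpu, which links RNA to the nuclear scaffold, fell from 53.9 ± 1.77 to 40.1 ± 1.12 FPKM (log2 fold change -0.42) and its relative Hnrnpul1 from 19.9 ± 0.756 to 15.1 ± 0.105 FPKM (-0.38), and both were also lower after scaling (-0.24 and -0.20). Hnrnpul2, the third of them, read 26.7 ± 0.627 FPKM in WT and 26.2 ± 0.516 FPKM in CKO and was not called as deposited (95% interval of the log2 fold change -0.10 to 0.052), but was called higher after scaling (0.15, limma adjusted p 0.0019). Hnrnpa0, an AU-rich element binder, had 38.8, 54.9 and 53.0 FPKM in the WT-labelled libraries and 38.9, 33.0 and 36.2 FPKM in the CKO-labelled ones, groups that overlap because WT replicate 1 lay at the CKO level (log2 fold change -0.42, SE 0.108, limma adjusted p 0.00395), and after median-of-ratios scaling the call was lost (-0.24, limma adjusted p 0.0699). Hnrnpm (-0.22), Hnrnpr (-0.19) and Hnrnpk (-0.11) were lower by small log2 fold changes that were not called after scaling (-0.040, -0.060 and 0.068). Hnrnpab, of which 29.1% of the exon length is overlapped by Phykpl, read 45.1 ± 1.10 FPKM in WT and 42.1 ± 1.04 FPKM in CKO (limma adjusted p 0.0245); leaving out WT replicate 2 or 3 or CKO replicate 2 or 3 ended this call (limma adjusted p 0.0566 to 0.0879).

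The 4 genes of U1 and U2 specific proteins chosen by name split within each particle. All 4 were called, 2 lower and 2 higher, and the same holds after median-of-ratios scaling. Among all tested genes 81.1% were called (30.5% higher and 50.5% lower), so this count does not set the class apart. In U1, Snrpa (U1-A; ENSMUSG00000061479, chr7:27187005-27196271), which binds a stem loop of U1 RNA, had 10.97, 10.9 and 9.42 FPKM in the WT-labelled libraries and 6.08, 5.82 and 5.33 FPKM in the CKO-labelled ones, a fall of 44.9% (log2 fold change -0.76, SE 0.0654, limma adjusted p 6.94e-07; -0.60 after scaling). Snrpc (U1-C; ENSMUSG00000024217, chr17:27838150-27851968), which steadies the contact of U1 with the 5′ splice site, had 5.44, 5.597 and 5.41 FPKM in the WT-labelled libraries and 7.21, 7.63 and 7.45 FPKM in the CKO-labelled ones, a rise of 35.5% (log2 fold change 0.38, SE 0.0469, limma adjusted p 1.64e-05; 0.54). Both pairs of groups were apart, in opposite directions.

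In U2, Snrpb2 (U2-B″; ENSMUSG00000008333, chr2:143063039-143072853), a close relative of Snrpa, had 16.3, 15.5 and 16.6 FPKM in the WT-labelled libraries and 10.8, 11.8 and 12.1 FPKM in the CKO-labelled ones and was 28.2% lower (log2 fold change -0.45, SE 0.0488, limma adjusted p 5.74e-06; -0.27 after scaling). Its binding partner Snrpa1 (U2-A′; ENSMUSG00000030512, chr7:66059003-66074587) had 3.70, 2.92 and 4.18 FPKM in the WT-labelled libraries and 5.83, 6.15 and 6.04 FPKM in the CKO-labelled ones and was 67.0% higher (log2 fold change 0.62, SE 0.0876, limma adjusted p 5.11e-05; 0.77). The WT values of Snrpa1 spread more than its CKO values, and the groups did not overlap.

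The Sm proteins form the ring shared by U1, U2, U4 and U5. Of 6 tested, 5 were lower, none was higher and Snrpd3 was not called. Snrpb (ENSMUSG00000027404, chr2:130171414-130179403), which encodes SmB and SmB′, had 53.2, 54.4 and 53.9 FPKM in the WT-labelled libraries and 40.2, 40.1 and 41.7 FPKM in the CKO-labelled ones (24.4% lower; log2 fold change -0.40, SE 0.0316, limma adjusted p 3.51e-07; -0.21 after scaling). Snrpd2 (ENSMUSG00000040824, chr7:19149722-19153542) had 8.94, 10.03 and 9.90 FPKM in the WT-labelled libraries and 6.96, 5.82 and 6.07 FPKM in the CKO-labelled ones (34.7% lower; log2 fold change -0.55, SE 0.0659, limma adjusted p 1.32e-05; -0.38). Snrpe (ENSMUSG00000090553, chr1:133603871-133610291) had 20.1, 18.4 and 18.5 FPKM in the WT-labelled libraries and 14.2, 15.0 and 15.5 FPKM in the CKO-labelled ones (21.8% lower; log2 fold change -0.33, SE 0.0473, limma adjusted p 4.96e-05; -0.16). For these 3 ring members every CKO library lay below every WT library, and all 3 were also called lower after scaling.

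Snrpd1 went from 9.25 ± 0.0646 to 7.97 ± 0.420 FPKM (log2 fold change -0.19, limma adjusted p 0.00317) and Snrpg from 7.96 ± 0.897 to 6.64 ± 0.681 FPKM (-0.23, limma adjusted p 0.0212), and neither was called after scaling (-0.028 and -0.066). Values of Snrpg overlapped between the groups, and its call was lost without WT replicate 3 (log2 fold change -0.15, limma adjusted p 0.0923), CKO replicate 1 (0.0938) or CKO replicate 2 (0.0539). Snrpd3 read 10.2 ± 0.374 FPKM in WT and 11.005 ± 0.593 FPKM in CKO (95% interval of the log2 fold change -0.013 to 0.21), and was called higher after scaling (0.27) and without CKO replicate 1 (limma adjusted p 0.0294). Small Sm genes have processed copies in mammalian genomes, so reads could be split. Snrpf, though its product is part of the same ring, had 4, 3 and 2 reads in WT and 1, 1 and 1 in CKO; genes on the opposite strand cover 85.4% of its listed exon length, and its level is not interpretable here. Snrpn, the neuronal SmN gene of an imprinted locus, had 0 reads in all libraries, as did Snurf, which shares that locus.

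SF3A and SF3B hold the U2 particle on the branch site. Of 9 tested, 5 were lower, 1 was higher and 3 were not called; after median-of-ratios scaling 4 were lower and 3 higher. Sf3a1 (ENSMUSG00000002129, chr11:4160350-4182541), the scaffold of SF3A, had 9.79, 10.1 and 9.84 FPKM in the WT-labelled libraries and 6.58, 6.01 and 5.90 FPKM in the CKO-labelled ones (37.7% lower; log2 fold change -0.61, SE 0.0499, limma adjusted p 4.67e-07; -0.44 after scaling). Sf3a2 (ENSMUSG00000020211, chr10:80798198-80804924) had 14.8, 15.3 and 14.7 FPKM in the WT-labelled libraries and 11.2, 11.6 and 11.5 FPKM in the CKO-labelled ones (23.6% lower; log2 fold change -0.36, SE 0.0398, limma adjusted p 6.03e-06; -0.19). Groups were apart for both. The other SF3A subunit, Sf3a3, read 12.8 ± 0.326 FPKM in WT and 12.8 ± 0.473 FPKM in CKO and was not called (95% interval of the log2 fold change -0.10 to 0.089; after scaling it was called higher, at 0.17).

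In SF3B, Sf3b2 (ENSMUSG00000024853, chr19:5273932-5295455), which contacts RNA near the branch site, had 37.4, 36.7 and 35.8 FPKM in the WT-labelled libraries and 26.3, 25.9 and 26.4 FPKM in the CKO-labelled ones (28.5% lower; log2 fold change -0.47, SE 0.0333, limma adjusted p 1.25e-07; -0.29 after scaling). Sf3b1, the large subunit that clamps the branch helix, went from 35.2 ± 0.891 to 28.9 ± 0.755 FPKM (log2 fold change -0.28, limma adjusted p 2.43e-05; -0.10 after scaling). Sf3b6 (p14; ENSMUSG00000037361, chr12:4817544-4827659), which sits beside the branch adenosine on SF3B1, had 14.8, 15.2 and 16.5 FPKM in the WT-labelled libraries and 18.4, 17.9 and 18.5 FPKM in the CKO-labelled ones and was 18.1% higher (log2 fold change 0.23, SE 0.0458, limma adjusted p 7.61e-04; 0.40). The first 2 were lower and the last higher in every CKO library.

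Sf3b4 (ENSMUSG00000068856, chr3:96172332-96177564), an RNA-binding subunit, had 34.6, 33.7 and 33.3 FPKM in the WT-labelled libraries and 31.6, 29.4 and 32.7 FPKM in the CKO-labelled ones (7.65% lower; log2 fold change -0.11, SE 0.0424, limma adjusted p 0.0293). Its groups were apart by little, and leaving out WT replicate 1 (limma adjusted p 0.0836), WT replicate 2 (0.0539) or CKO replicate 2 (0.132, log2 fold change -0.070 against -0.11) ended the call. After median-of-ratios scaling its log2 fold change was 0.067 (limma adjusted p 0.185). Sf3b3 read 9.17 ± 0.292 FPKM in WT and 8.96 ± 0.211 FPKM in CKO (95% interval of the log2 fold change -0.13 to 0.069) and Sf3b5 12.7 ± 0.0937 FPKM in WT and 11.6 ± 0.918 FPKM in CKO (-0.24 to -0.0033), and neither was called as deposited; Sf3b3 was called higher after scaling (0.14, limma adjusted p 0.0178), and without CKO replicate 3 Sf3b5 was called lower (limma adjusted p 0.0093).

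The PRP proteins were divided as well. Of 13 tested, 5 were lower, 3 were higher and 5 were not called, with a median log2 fold change of -0.06; after scaling 2 were lower and 5 higher. Prpf38a (ENSMUSG00000063800, chr4:108563172-108579336), needed for activation of the assembled spliceosome, had 3.72, 3.81 and 3.77 FPKM in the WT-labelled libraries and 8.46, 8.62 and 9.02 FPKM in the CKO-labelled ones. It was 131% higher, with libraries of each group close together and far apart between groups (log2 fold change 1.02, SE 0.0480, limma adjusted p 2.97e-09; 1.18 after scaling). It had the largest change of the 59 genes.

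Prpf38b (ENSMUSG00000027881, chr3:108902805-108911727), its paralog, had 21.8, 19.3 and 19.9 FPKM in the WT-labelled libraries and 21.8, 23.1 and 21.7 FPKM in the CKO-labelled ones, groups that touch (9.50% higher; log2 fold change 0.13, SE 0.0488, limma adjusted p 0.0328; 0.30 after scaling). Leaving out WT replicate 2 (limma adjusted p 0.124), WT replicate 3 (0.0936) or CKO replicate 2 (0.121) ended this call. Prpf40b, a U1-associated protein, was higher at low level, with 2.05, 1.35 and 1.64 FPKM (WT) and 2.69, 2.95 and 2.78 FPKM (CKO) and no overlap (log2 fold change 0.51, limma adjusted p 2.19e-04; 0.64 after scaling).

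The lower PRP genes included tri-snRNP and catalytic proteins, but the U4/U6 proteins Prpf3, Prpf4 and Prpf31, described below, were not called. Prpf4b (ENSMUSG00000021413, chr13:34875302-34906064), a kinase of the tri-snRNP, had 14.3, 13.1 and 14.2 FPKM in the WT-labelled libraries and 10.3, 9.78 and 9.77 FPKM in the CKO-labelled ones (28.2% lower; log2 fold change -0.44, SE 0.0483, limma adjusted p 5.74e-06; -0.27 after scaling). Prpf6 (ENSMUSG00000002455, chr2:181591868-181655660), a bridge between U5 and U4/U6, had 18.0, 18.2 and 18.3 FPKM in the WT-labelled libraries and 14.5, 15.6 and 14.5 FPKM in the CKO-labelled ones (18.1% lower; log2 fold change -0.27, SE 0.0410, limma adjusted p 8.32e-05; -0.10). All CKO libraries were below all WT libraries for both.

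Prpf8 (ENSMUSG00000020850, chr11:75486816-75509449), the U5 protein at the catalytic centre and the most abundant PRP gene by FPKM, had 45.8, 45.6 and 46.8 FPKM in the WT-labelled libraries and 41.3, 39.3 and 39.1 FPKM in the CKO-labelled ones (13.4% lower; log2 fold change -0.20, SE 0.0337, limma adjusted p 1.79e-04). Prpf19 (ENSMUSG00000024735, chr19:10895231-10909559), the ubiquitin ligase of the PRP19 complex, had 10.3, 10.7 and 10.5 FPKM in the WT-labelled libraries and 8.66, 8.83 and 8.97 FPKM in the CKO-labelled ones (15.9% lower; log2 fold change -0.23, SE 0.0422, limma adjusted p 4.26e-04). Groups were apart for both as deposited, but after median-of-ratios scaling neither was called (-0.022, limma adjusted p 0.56, and -0.059, limma adjusted p 0.225). Prpf18, a second-step factor, went from 8.86 ± 0.251 to 7.92 ± 0.0720 FPKM (log2 fold change -0.14; 0.021 after scaling, not called). The U4/U6 proteins Prpf3, Prpf4 and Prpf31 and the U1-associated Prpf39 were not called as deposited, with log2 fold changes of -0.061, 0.087, 0.011 and -0.047 (95% intervals -0.18 to 0.061, -0.037 to 0.21, -0.092 to 0.11 and -0.20 to 0.11). After scaling Prpf4 and Prpf31 were called higher (0.23 and 0.18).

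Ratios between genes within a library do not depend on a scaling by 1 factor per library, such as median-of-ratios, though quantile normalization can change them. They were taken for 22 pairs of partners or paralogs, chosen after the values had been seen, so they describe these libraries. The 3 WT and 3 CKO ratios did not overlap for 16 pairs and overlapped for 6. Among single tested genes 82.5% did not overlap, but that share is of levels. It was not taken for ratios of other gene pairs, so the 16 have no matching background. With 3 libraries a group the two-sided exact permutation p cannot go below 0.1, the value for each of the 16, or 0.138 adjusted (Benjamini-Hochberg) over the 22 pairs.

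The U1 ratio Snrpa to Snrpc was 2.02, 1.94 and 1.74 in the WT-labelled libraries and 0.844, 0.763 and 0.715 in the CKO-labelled ones, a log2 difference of -1.30. The U2 ratio Snrpb2 to Snrpa1 was 4.40, 5.30 and 3.97 in the WT-labelled libraries and 1.86, 1.92 and 1.996 in the CKO-labelled ones (-1.23). In both particles the ratio was lower in every CKO library, and in U1 the order of the genes changed, Snrpa being above Snrpc in WT and below it in CKO.

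Among paralogs, Prpf38a to Prpf38b was 0.171, 0.198 and 0.1899 in the WT-labelled libraries and 0.388, 0.372 and 0.415 in the CKO-labelled ones (log2 difference 1.07), and Hnrnpl to Hnrnpll 3.28, 3.76 and 3.29 in the WT-labelled libraries and 6.19, 6.70 and 7.16 in the CKO-labelled ones (0.96). Hnrnpa1 to Hnrnpa3 was 3.64, 3.47 and 3.53 in the WT-labelled libraries and 5.80, 6.44 and 6.07 in the CKO-labelled ones (0.78). These ratios were higher in all CKO libraries. Hnrnpf to Hnrnph3 was lower there, with a log2 difference of -0.99.

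Within SF3A, Sf3a1 to Sf3a3 was 0.742, 0.799 and 0.775 in the WT-labelled libraries and 0.494, 0.478 and 0.475 in the CKO-labelled ones (-0.68). In SF3B the log2 difference of Sf3b1 to Sf3b6 was -0.53, and in the Sm ring that of Snrpb to Snrpd3 was -0.51. Ratios that overlapped were Srsf1 to Srsf9, Srsf4 to Srsf6, Srsf5 to Srsf6, Sf3b3 to Sf3b5, Snrpe to Snrpg and Prpf8 to Prpf6, with exact permutation p between 0.2 and 0.8.

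**Figure D4:**
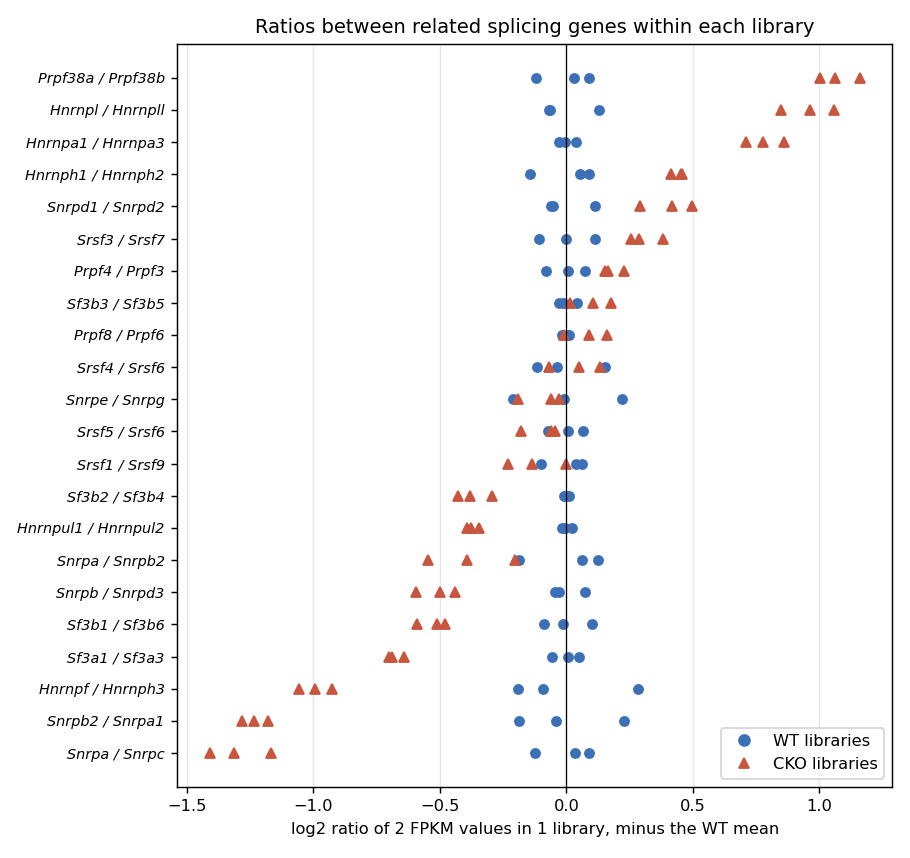
Log2 ratio of the FPKM of 2 splicing genes within each library, minus the mean of the WT libraries, for 22 pairs of partners or paralogs; circles are WT and triangles CKO libraries. The CKO libraries lie lowest for Snrpa to Snrpc (log2 difference -1.30) and highest for Prpf38a to Prpf38b (1.07).

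Other parts of the splicing machinery were also called near the background share. The 9 further lists held 127 symbols, of which Nhp2l1 and Snu13 name 1 gene, and 126 were found with FPKM values. Of these 116 were tested, with 27 higher, 62 lower and 27 not called, and a median log2 fold change of -0.16. After median-of-ratios scaling 50 were higher and 40 lower, with a median of 0.01. The share called was 76.7%, against 81.1% of all tested genes (30.5% higher and 50.5% lower), and the counts by list that follow are descriptions beside that background. Among 24 other splicing regulators 18 were lower and 4 higher (median -0.35; 14 and 6 after scaling). Among 18 SR-related proteins and SR kinases 10 were lower and 1 higher as deposited, but 6 and 8 after scaling. The branch site list of 11 genes had 7 lower and 1 higher (3 and 4 after scaling). The minor spliceosome list of 9 had 6 lower and 2 higher (4 and 3). The PRP19 complex and catalytic list of 17 had 9 lower and 4 higher (4 and 8). More genes were higher than lower in the SMN and methylosome list, which serves Sm ring assembly (7 and 4 of 12, and 8 and 3 after scaling). The same held in the exon junction complex (3 and 1 of 5 under both scalings). The tri-snRNP list, which also holds the U1 protein gene Snrnp70, had 4 higher and 5 lower of 12 (7 and 3 after scaling). The LSm ring had 1 higher and 2 lower of 8 (3 and 2).

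The gene with the largest change in each direction on each list is given next, some of them larger than any of the 59. Mbnl1, a muscleblind regulator of alternative exons, went from 40.4 ± 1.37 to 10.1 ± 0.600 FPKM (log2 fold change -1.90, limma adjusted p 1.20e-11). Rbfox2, a regulator that binds GCAUG, rose from 0.127 ± 0.0233 to 1.47 ± 0.0490 FPKM (1.13). Clk4, a kinase that phosphorylates SR proteins, fell from 15.6 ± 1.34 to 8.13 ± 0.402 FPKM (-0.86), and Magohb, of the exon junction complex, rose from 1.29 ± 0.258 to 3.15 ± 0.189 FPKM (0.86). The tri-snRNP protein gene Snrnp27 rose from 11.1 ± 1.09 to 18.2 ± 1.09 FPKM (0.67) and the helicase gene Dhx38 from 21.9 ± 0.569 to 32.6 ± 0.453 FPKM (0.55). Ctnnbl1, bound to the PRP19 complex, fell from 14.2 ± 0.611 to 8.56 ± 0.664 FPKM (-0.67). Other genes that rose were Snupn (0.62), which carries snRNPs into the nucleus, Zcrb1 (0.42), Rnps1 (0.22), Lsm8 (0.20) and Phf5a (0.16). Those that fell were Tgs1 (-0.66), which makes the snRNA cap, Ppih (-0.53), Lsm5 (-0.53), Zrsr1 (-0.50), Ddx46 (-0.38) and Eif4a3 (-0.30).

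Of the proliferation markers 8 of 8 were lower in CKO, as were 7 of 9 tested neutrophil markers. Both counts were the same after median-of-ratios scaling, where 21 splicing genes were lower and 18 higher. Stmn1 went from 15.3 ± 0.426 to 1.04 ± 0.0441 FPKM, Top2a from 4.22 ± 0.251 to 0.701 ± 0.0188 FPKM and Pcna from 70.3 ± 0.804 to 48.5 ± 3.54 FPKM. S100a9, abundant in neutrophils, went from 425 ± 84.97 to 37.3 ± 5.10 FPKM. The part of dividing or contaminating cells in the splicing gene levels was not tested.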

How the data were processed

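Per the file headers, each of the 6 deposited tables gives FPKM for 1 library beside gene annotation, for the same 21936 genes. The submitters' processing notes name genome build mm10 and, without saying which step each served, Cufflinks, DESeq2 1.22.1, fastp 0.19.3, featureCounts 1.6.2, GATK 4.0.11.0, HISAT2 2.1.0 and StringTie 1.3.4d. Whether counting used strand or multiply mapped reads is not given in the sources used here. FPKM multiplied by the listed length gave whole multiples of 1 step for 99.9% of values (tolerance 0.01 reads), so reads per gene were recovered for depth and for 1 alternative test.

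Genes with at least 1 FPKM in at least 3 libraries (9953) were fitted together on log2(FPKM + 1) in R 4.3.3 with limma 3.58.1 (moderated by eBayes, trend on), with group as the only term and Benjamini-Hochberg adjustment, called under 0.05; the step was tested on simulated data. The added 1 understates changes of low genes. Intervals are 95% from the same fit, not adjusted for the number of genes. Tables used Python 3.11.15, pandas 2.3.3, numpy 2.4.6, scipy 1.17.1 and matplotlib 3.10.9. Groups come from the sample titles. The splicing genes and the other lists were chosen with earlier results of these data known. In each class, values per library are given for up to 3 called genes with the largest rise and 3 with the largest fall among those with at least 5 FPKM in the higher group, and for the most abundant gene; other genes with values per library (Srsf4, Hnrnpa0, Prpf40b) were added after their values were seen. Of the tested genes 1 enters all counts but is not reported here by name. Promoter windows are from RefSeq for GRCm38.p6. Coordinates are those in the tables; for 61 of the 62 genes they equal GENCODE M21. Alternatives were other filters, pseudocounts of 0.1 and 0.5, median-of-ratios and quantile scaling, limma without trend, with array weights or as voom on recovered reads, a size threshold of 0.5, the replicate number as a block and each library left out.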

Additional observations from a re-analysis of the deposited data

How the results depend on the processing

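Counts of higher and lower splicing genes were 9 and 37; each library left out gave 8 to 10 and 34 to 36, for all genes 2910 to 2961 and 4853 to 4952, and for the other splicing lists 22 to 26 and 59 to 62. Counts left the range of 1.5 times in these cases: median-of-ratios scaling gave 18 and 21 splicing genes and 50 and 40 genes of the other lists; a size of at least 0.5 gave 3 and 8, 5 and 15, and 1542 and 2580 of all genes; a mean of at least 5 FPKM gave 3185 lower genes in all. A replicate block gave 9 and 37, and 3018 and 5023 of all genes. Deviations of libraries with the same number correlated at 0.019, 0.012 and -0.039, and those with other numbers at -0.057 to 0.045. No shared deviation by number was seen, which cannot tell whether libraries were paired.

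Of 923 values for 58 genes under alternatives, 845 kept direction and call, 40 lost and 11 gained the call, and 27 changed sign, most of them uncalled genes near 0; the cause was not tested. Changed log2 fold changes were, under median-of-ratios scaling, Prpf18 0.021, Prpf3 0.093, Prpf39 0.11, Sf3a3 0.17, Sf3b3 0.14, Sf3b4 0.067, Sf3b5 0.049, Srsf1 0.0011, Srsf10 0.033, Srsf9 0.12, Hnrnpab 0.086, Hnrnph1 0.14, Hnrnpk 0.068, Hnrnpl 0.079 and Hnrnpul2 0.15; under quantile normalization, Prpf3 0.062, Prpf39 0.069, Sf3a3 0.053 and Sf3b3 0.062; and with 1 library left out, Hnrnph1 -0.11 to 0.0067, Prpf31 -0.019 to 0.033, Prpf39 -0.10 to 0.017, Sf3a3 -0.034 to 0.013. Snrpf, Snrpn and Srsf12 had 0 to 4 reads per library and did not enter the test.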

Other observations

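The letters GGACT, the most common context of N6-methyladenosine in mRNA, occurred at a median of 0.549 per kb in the longest coding transcripts of the 59 tested splicing genes, against 1.05 per kb over 9934 tested genes with a transcript. The median was 0.660 per kb for the 9 genes higher in CKO and 0.527 per kb for the 37 lower. In 7 of 59 transcripts the letters did not occur (11.9%, against 7.72% of tested genes): those of Srsf5, Snrpa, Snrpc, Snrpd1, Snrpe, Snrpg and Hnrnpab. A match of letters does not show a methylated site, and no methylation was measured here.

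WT replicate 2 was the lowest WT library for 30 of the 59 splicing genes (50.8%) and for 59 of 116 other splicing genes (50.9%), against 37.5% of all 9953 tested genes. By class it was the lowest for 8 of 10 SR, 10 of 17 hnRNP, 6 of 13 PRP, 2 of 4 U1 and U2 specific, 2 of 6 Sm and 2 of 9 SF3 genes; among SF3 genes WT replicate 3 was the lowest for 5 of 9. The coefficient of variation between libraries had a median of 3.29% in WT and 3.56% in CKO for the splicing genes, against 4.51% and 4.68% for all tested genes.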
